A study of Homo sapiens with 2 samples.

Results

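The expression of 10 genes that control mitochondrial apoptosis was examined by bulk RNA sequencing in 2 libraries. These were the survival genes BCL2, MCL1, BCL2L1 and BCL2A1, the effector genes BAX and BAK1, and the BH3-only genes BCL2L11, BBC3, PMAIP1 and BID. They were taken by symbol from a table of 18930 genes, and all 10 had counts. Of the 18267 genes with counts, 16210 had at least 10 reads over both libraries and were compared, all 10 members among them. One library carries the group label DR, which in the study stands for cells resistant to dacarbazine (DTIC), a prodrug that alkylates DNA. The other carries the label WT and a title that marks it as wild type. The cell line given for both is A375, from a human melanoma, grown in DMEM with serum. The labels name the agent as DITC and give 105 days of treatment for both libraries, the WT library included. The libraries held 54878355 reads (DR) and 35294670 reads (WT). With 1 library per group there was no replicate, so every difference is one between these libraries and not between the conditions. No p-value was computed, and all 95% intervals cover read counting only.

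The labels need care. The count columns were given to the samples through their descriptions, which differ from each other by 1 punctuation mark and do not name the wild type. The defining markers also went against the labelled cell type. Of 14 melanocytic markers, 12 had counts, with a median of 0.121 TPM (transcripts per 1000000, a level per gene length) in the DR-labelled library and 0.388 TPM in the WT-labelled library. The highest of them, RAB27A, MITF and PMEL, had 50.7, 8.13 and 4.93 TPM in the DR-labelled library, whereas SOX10 had 3 reads and 0 reads and TYRP1 0 and 17. The 12 summed to 68.6 and 58.8 TPM. The 12 plasma cell markers had medians of 213.6 and 222.0 TPM and sums of 6734 and 8012 TPM, and 3 of the 12 were past 2-fold higher in the DR-labelled library (7.42% of all genes were) and 0 lower (4.19% of all genes). They were led by JCHAIN with 3366 and 4940 TPM. Next by level in the DR-labelled library came MZB1 with 1192 and 599.8 TPM and XBP1 with 701.9 and 919.9 TPM. The 9 markers of dedifferentiated melanoma had medians of 4.68 and 5.44 TPM but sums of 227.7 and 1383 TPM, and 2 of the 9 were past 2-fold lower in the DR-labelled library and 0 higher: VIM with 144.6 and 1226 TPM and CDH2 with 7.69 and 40.7 TPM. The B cell markers had medians of 1.27 and 0.237 TPM and sums of 24.4 and 9.1 TPM, with 3 of the 5 compared past 2-fold higher. T cell markers had medians of 2.49 and 1.71 TPM and sums of 15.3 and 8.68 TPM, with 1 of 6 higher. For myeloid cells the medians were 1.14 and 0.820 TPM and the sums 23.2 and 19.6 TPM, with 0 of 4 past 2-fold in either direction. Fibroblast markers had medians of 0.798 and 0.012 TPM and sums of 5.5 and 1.22 TPM, with 2 of 2 compared higher, and keratinocyte markers had medians of 1.89 and 3.93 TPM and sums of 21.6 and 25.8 TPM, with 1 of 3 lower. The part of any cell type in the results below was not tested. The libraries are therefore named by their labels only.

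BCL2 proteins decide whether the outer membrane of the mitochondrion stays closed. The survival proteins hold the effectors BAX and BAK1 in check, and BH3-only proteins bind to the survival proteins or to the effectors and so promote pore formation and the release of cytochrome c. MCL1 is known as the survival protein on which plasma cells depend, while BCL2A1 is known as a target of MITF in melanoma and of NF-κB in lymphoid cells.

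The upstream sequences of 3 members are shown as context for the values that follow: BBC3 and BCL2A1, the members with the largest differences between the libraries, and BAX, which differed little. They are the 250 bases before the annotated transcription start, on the strand of the gene, from RefSeq (GRCh38.p14). The libraries hold no measurement of binding or methylation at these places. In BBC3 (chr19:47232668-47232917, minus strand) and BAX (chr19:48954625-48954874, plus strand) capitals mark the E-box CACGTG, and in BCL2A1 (chr15:79971197-79971446, minus strand) the letters of a TATA box.
BBC3: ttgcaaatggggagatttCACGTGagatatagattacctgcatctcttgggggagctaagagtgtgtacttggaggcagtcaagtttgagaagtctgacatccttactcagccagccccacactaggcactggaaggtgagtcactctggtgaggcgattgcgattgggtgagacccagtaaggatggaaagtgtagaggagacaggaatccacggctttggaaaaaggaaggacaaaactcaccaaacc
BAX: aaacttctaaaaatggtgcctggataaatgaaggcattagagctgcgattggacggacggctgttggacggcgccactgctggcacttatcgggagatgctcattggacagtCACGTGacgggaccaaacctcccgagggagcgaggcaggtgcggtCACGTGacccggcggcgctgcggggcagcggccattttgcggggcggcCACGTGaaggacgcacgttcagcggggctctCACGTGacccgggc
BCL2A1: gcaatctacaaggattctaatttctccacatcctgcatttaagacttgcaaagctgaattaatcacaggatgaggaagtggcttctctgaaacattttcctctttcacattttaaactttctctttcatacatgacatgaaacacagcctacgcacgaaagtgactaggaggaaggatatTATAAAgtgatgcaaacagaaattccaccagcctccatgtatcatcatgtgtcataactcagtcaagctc

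RefSeq windows were given for 9 of the 10 members, 14 windows in all, since BCL2L1 and BID have several starts. The E-box occurred 4 times in the BAX window, where its first base lay 138, 93, 45 and 14 bases before the start. It occurred once in the BBC3 window, 232 bases before the start, and in 2 of the overlapping BID windows, whereas 6.35% of all 35116 windows hold it. The TATA letters (TATAAA on either strand) lay 70 bases before the start of BCL2A1 and in 1 of the windows of BCL2L1, against 10.7% of all windows. The GC box, spelled GGGCGG on either strand, was found in the windows of BAX, BAK1, BCL2L11, PMAIP1 and BID, and 42.6% of all windows hold it. The letters CCAAT were found for BAX, BAK1, BCL2L11 and BBC3, against 32.0% of all windows. The BCL2A1 window had the lowest GC content of the 14 windows (38.8%), and 1 of the BID windows had the highest (78.0%). A match of letters is a description of the window and not a binding site.

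Among the survival genes, MCL1 was the most abundant in both libraries and nearly the same in each. MCL1 had 26040 reads in the DR-labelled library and 16368 in the WT-labelled library, which after scaling for library size were 467.8 and 470.4 CPM (counts per 1000000 reads). Its log2 fold change, DR-labelled over WT-labelled on the scale of log2 (CPM + 0.5), was -0.01 (95% interval -0.04 to 0.02), and with scaling by library totals alone it was 0.03. By level per length MCL1 stood at 255.1 and 258.7 TPM, percentiles 96.7 and 96.4 of all genes compared. In bulk RNA, fewer cells of a type and less RNA per cell cannot be told apart.

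BCL2L1, which encodes the survival protein BCL-XL, had 13716 and 5845 reads, or 246.4 and 168.0 CPM. This was a log2 fold change of 0.55 (0.51 to 0.60), or 1.47-fold (1.42 to 1.51) more in the DR-labelled library. BCL2, the founding member of the family, had 8674 and 4313 reads, or 155.8 and 124.0 CPM. Its log2 fold change was 0.33 (0.28 to 0.38), 1.26-fold (1.21 to 1.30). Both intervals lay above 0, and neither gene was past a 1.5-fold difference. Against all genes compared, whose middle 50% lay between -0.29 and 0.34, BCL2L1 was at percentile 84.3 of the log2 fold changes and BCL2 at percentile 74.5.

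BCL2A1, which encodes the survival protein BFL-1, was low in both libraries. It had 40 reads in the DR-labelled library and 2 in the WT-labelled library, where 3 reads are worth 0.0539 and 0.0862 CPM. This was 1.79 and 0.144 TPM, percentiles 24.1 and 5.52 of all genes. The ratio was 12.5, with a wide counting interval of 3.24 to 106.8. The log2 fold change of 1.13 (0.70 to 1.30) depended on the pseudocount, and at 5 CPM it was 0.18. The deposited counts of BCL2A1 were fractional (39.52 and 2.07), and what made them so was not tested.

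**Figure D1:**
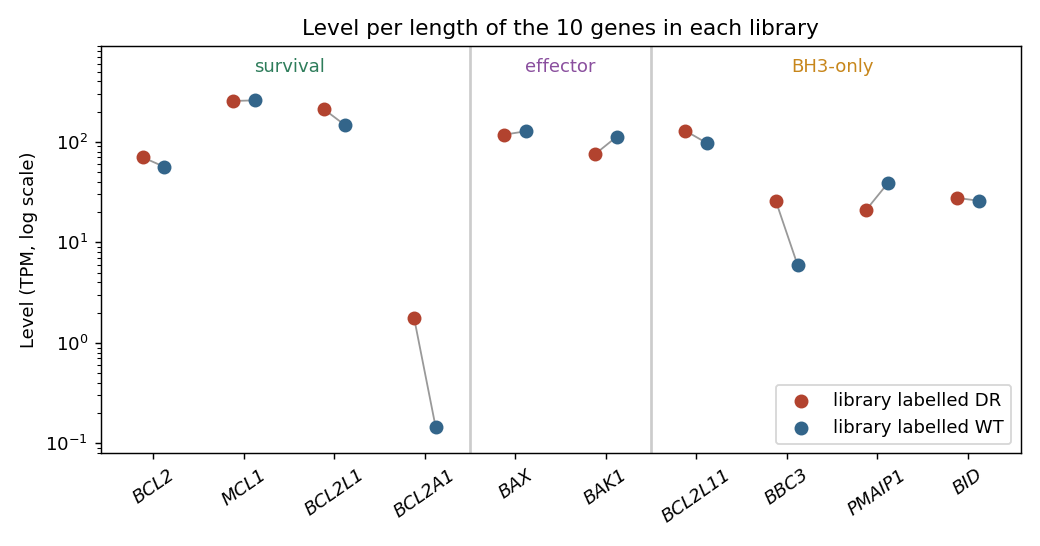
Level of each gene in TPM (log axis) in the DR-labelled and the WT-labelled library, 1 point per library, grouped by role. MCL1 has the highest level in both libraries (255.1 and 258.7 TPM), and BCL2A1 the lowest (1.79 and 0.144 TPM).

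The effector genes were not higher in the DR-labelled library. BAK1, which is resident in the outer mitochondrial membrane, had 4128 and 3818 reads, or 74.2 and 109.7 CPM. Its log2 fold change was -0.56 (-0.63 to -0.50), so that it was 1.48-fold (1.42 to 1.55) higher in the WT-labelled library, just under a 1.5-fold difference. The deposited BAK1 count of the DR-labelled library was fractional as well (4128.06). BAX, which moves from the cytosol to the membrane on activation, had 2461 and 1650 reads, or 44.2 and 47.4 CPM. Its log2 fold change was -0.10 (-0.19 to -0.01), within the middle 50% of all genes, and with scaling by library totals alone it was -0.06. Per length BAX (118.0 and 127.7 TPM) was above BAK1 (75.4 and 112.5 TPM) in both libraries.

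The BH3-only genes did not move as a group, and they held the largest log2 fold change downward among the members and, at a pseudocount of 0.5 CPM, the largest upward. At 0.1 CPM BCL2A1 was above BBC3 (2.38 against 2.10). BBC3, which encodes PUMA, a protein that binds all main survival proteins, had 1136 reads in the DR-labelled library and 163 in the WT-labelled library. These were 20.4 and 4.68 CPM, a 4.36-fold difference (3.69 to 5.17). Its log2 fold change was 2.01 (1.79 to 2.23), at percentile 98.0 of all genes. BBC3 was the one member past 4-fold on this scale.

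PMAIP1, which encodes NOXA, a BH3-only protein known for binding MCL1, went the opposite way. It had 1032 and 1181 reads, or 18.5 and 33.9 CPM, and was 1.83-fold (1.68 to 1.99) higher in the WT-labelled library. The log2 fold change of -0.86 (-0.97 to -0.74) was at percentile 5.6 of all genes. BBC3 and PMAIP1 thus exchanged places by level: the former had 25.5 and 5.91 TPM, and the latter 21.2 and 39.2 TPM.

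BCL2L11, which encodes BIM, a protein that binds every main survival protein, was the most abundant BH3-only member. It had 13146 and 6122 reads, or 236.1 and 176.0 CPM, and was 1.34-fold (1.30 to 1.38) higher in the DR-labelled library. The log2 fold change of 0.42 (0.38 to 0.47) lay between those of BCL2 and BCL2L1. BID, which links death receptors to the mitochondrion after cleavage by caspase-8, had 1064 and 618 reads, or 19.1 and 17.8 CPM. Its interval spanned 0 (log2 fold change 0.10, -0.04 to 0.24). The interval does not cover the choice of scaling, and with library totals alone the value was 0.14. A difference in BID was thus not resolved.

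**Figure D2:**
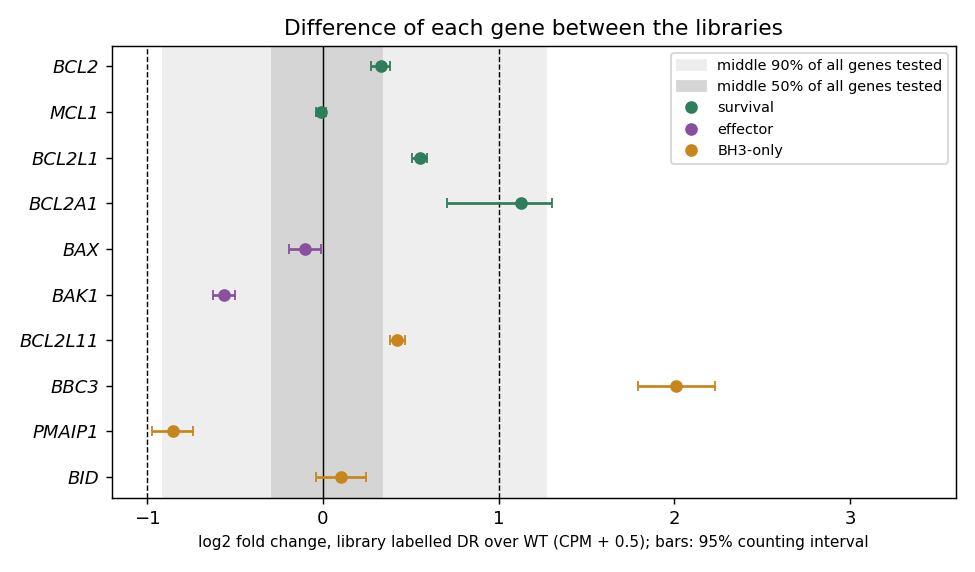
Log2 fold change of each gene, DR-labelled over WT-labelled library, with its 95% counting interval. Grey bands hold the middle 50% (-0.29 to 0.34) and middle 90% (-0.91 to 1.27) of the 16210 genes compared, and dashed lines mark 2-fold; BBC3 alone lies beyond the outer band.

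Past a 2-fold difference, 2 of the 10 members were higher in the DR-labelled library (BBC3 and BCL2A1), where 7.42% of all genes were, and 0 were lower, where 4.19% of all genes were. Past 1.5-fold, the same 2 members were higher, against 15.0% of all genes, and PMAIP1 was lower, against 11.3%. With 10 members these shares do not set the genes apart from the rest of the table. BCL2A1, with 2 reads in the WT-labelled library, passed the minimum of 10 reads only through the library where it was high, so its call lends the count no support, and without it the count is 1 of 9. Its call rests on 42 reads in all, and without a minimum of reads or with one of 10 it was kept, whereas BBC3 alone was past 2-fold with at least 50 reads or with a pseudocount of 5 CPM.

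To compare the balance of survival and pro-apoptotic transcripts, levels per length were summed by role. The survival genes summed to 539.8 TPM in the DR-labelled library and 461.5 TPM in the WT-labelled library, a ratio of 1.17 (1.15 to 1.19). The BH3-only genes summed to 203.2 and 167.8 TPM, a ratio of 1.21 (1.18 to 1.25). The effector genes summed to 193.4 and 240.2 TPM, a ratio of 0.805 (0.774 to 0.838). Survival and BH3-only sums were thus both higher in the DR-labelled library, and the effector sum was lower.

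The survival genes had 2.66 times the summed level of the BH3-only genes in the DR-labelled library and 2.75 times in the WT-labelled library. This ratio therefore differed by a factor of only 0.966 (0.935 to 0.998). The direction of that small difference rested on the most abundant genes: without MCL1, BAX and BCL2L11, the top member of each role, the factor was 1.34. The survival to effector ratio was 2.79 and 1.92, a factor of 1.45 (1.39 to 1.52), and without those genes the factor was 2.10. Every survival gene had a higher log2 fold change than both effector genes. Leaving out genes could therefore not bring this factor below 1, and the alternative is no check of its direction. The effector to BH3-only ratio was 0.952 and 1.43, so that per length BH3-only transcripts exceeded effector transcripts in the DR-labelled library alone. This order depended on length and on the top genes: by CPM the ratio was 0.402 and 0.676, and without the top genes it was 1.01 and 1.58.

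**Figure D3:**
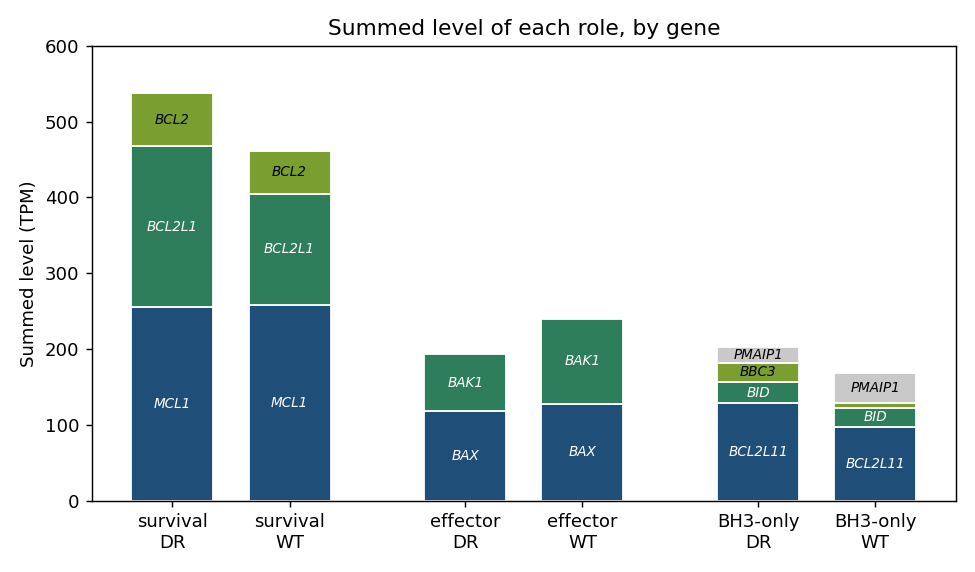
Summed level in TPM of the survival, effector and BH3-only genes in each library, stacked by gene (BCL2A1 in both libraries and BBC3 in the WT-labelled library are too thin to label). The survival stack is 539.8 and 461.5 TPM, the effector stack 193.4 and 240.2 TPM, and the BH3-only stack 203.2 and 167.8 TPM.

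The make-up of each role was compared as shares of its summed TPM. MCL1 made up 47.3% of the survival transcripts in the DR-labelled library and 56.1% in the WT-labelled library, while BCL2L1 made up 39.4% and 31.7%, and BCL2 13.0% and 12.2%. BCL2A1 made up 0.331% and 0.031%. Of the BH3-only transcripts, BCL2L11 held the larger part in both libraries (63.4% and 57.6%). The share of BBC3 was 12.6% and 3.52%, and that of PMAIP1 was 10.4% and 23.4%. BID held 13.6% and 15.5%. Of the effector transcripts, BAX held 61.0% and 53.2% and BAK1 39.0% and 46.8%. The shares of BCL2L1, BCL2, BCL2A1, BCL2L11, BBC3 and BAX were thus larger in the DR-labelled library. Those of MCL1, PMAIP1, BID and BAK1 were smaller.

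The balance was then taken gene by gene, as the ratio of each survival gene to each effector or BH3-only gene (24 pairs). The change of such a ratio between the libraries needs neither library size nor gene length. The interval of the change lay above 1, toward the survival gene in the DR-labelled library, for 16 pairs. It lay below 1 for 5 pairs and spanned 1 for 3. BCL2A1, with its 2 reads in the WT-labelled library, gave 5 of the 16, and the 18 pairs of the other survival genes divided into 11 above 1, 5 below 1 and 2 that spanned 1. By denominator, PMAIP1 and BAK1 gave 4 of the 16 each, and BBC3 gave 3 of the 5 below 1. These pairs share genes and are not independent, and the intervals are not adjusted for their number. No such count was made over pairs of other genes, so these counts have no background and show no lean of the members as a set.

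All 4 ratios against PMAIP1 and all 4 against BAK1 were higher in the DR-labelled library, those of BCL2A1 resting on 40 and 2 reads. These directions restate the single-gene values and add no support to them. PMAIP1 (-0.86) and BAK1 (-0.56) had lower log2 fold changes than every survival gene, of which MCL1 was the lowest (-0.01). The ratio of MCL1 to PMAIP1, a survival protein and its known binder, was 12.02 per length in the DR-labelled library and 6.60 in the WT-labelled library, a change of 1.82-fold (1.67 to 1.99). The ratio of BCL2L1 to BAK1, which BCL-XL is known to restrain, was 2.82 and 1.30, a change of 2.17-fold (2.06 to 2.29). BCL2L1 had the largest such changes among the 3 abundant survival genes, up to 2.69-fold (2.45 to 2.94) against PMAIP1.

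Against BBC3 the ratios went the other way. MCL1 had 9.99 times the level of BBC3 in the DR-labelled library and 43.8 times in the WT-labelled library, 4.38-fold (3.71 to 5.20) lower in the former. For BCL2 the ratio to BBC3 was 2.76 and 9.55, and for BCL2L1 it was 8.33 and 24.7. The ratio of BCL2A1 to BBC3 had an interval that spanned 1 (0.732 to 24.7).

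Against BCL2L11 the ratios of the 3 abundant survival genes differed less, and not in 1 direction. The ratio of BCL2 to BCL2L11 was 0.547 and 0.584, a change by a factor of 0.937 (0.893 to 0.982), and that of BCL2L1 to BCL2L11 was 1.65 and 1.51, a change by 1.09 (1.05 to 1.14). The ratio of MCL1 to BCL2L11 was 1.98 and 2.67, a change by 0.741 (0.715 to 0.768). For MCL1 the interval spanned 1 against BAX (0.999 to 1.14) and BID (0.834 to 1.02).

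**Figure D4:**
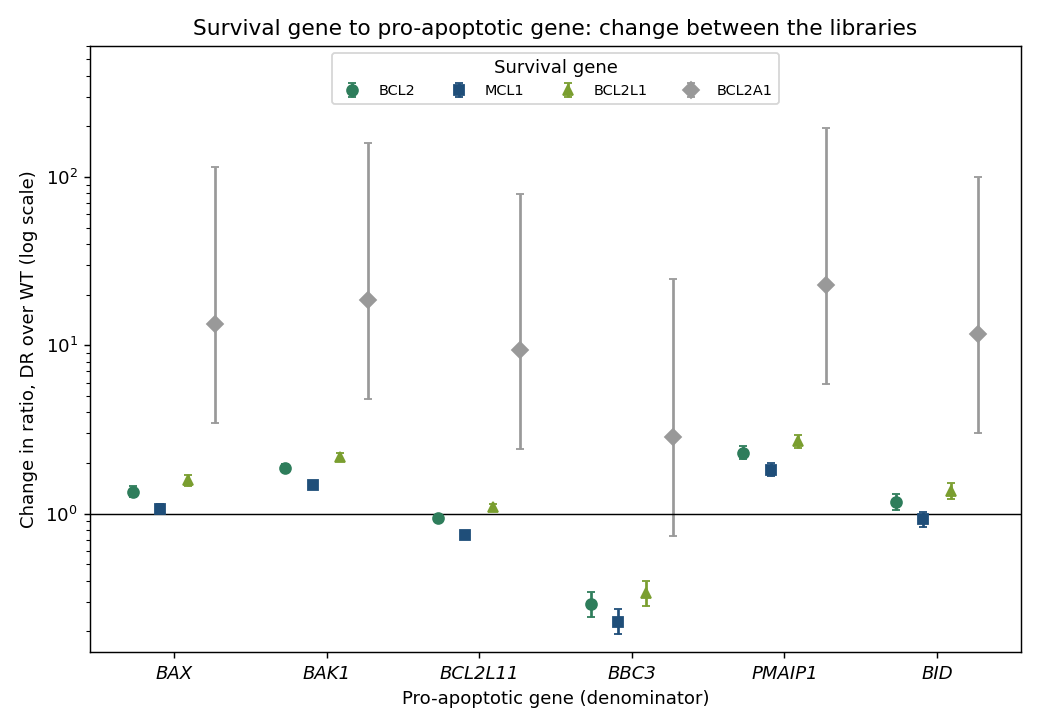
Change between the libraries (DR-labelled over WT-labelled, log axis) in the ratio of each survival gene to each effector or BH3-only gene, with exact 95% counting intervals. All points against PMAIP1 and BAK1 lie above 1, those of BCL2, MCL1 and BCL2L1 against BBC3 lie near 0.289, 0.228 and 0.337, and BCL2A1 has wide intervals because it rests on 42 reads.

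The genes next to each member on its chromosome were compared as well, in the order of the RefSeq annotation. The 10 compared genes that flank BBC3, 5 on each side, had a median log2 fold change of 0.02 and ranged from -0.92 to 0.41. BBC3 itself was at 2.01. None of the 10 was past 2-fold, where 7.42% of all genes were higher and 4.19% lower. With 10 genes that count does not set them apart from all genes. Those flanking PMAIP1 had a median of 0.03 and ranged from -1.39 to 1.80, with 1 past 2-fold higher and 1 lower. Those flanking BAK1 had a median of 0.09 and ranged from -0.21 to 0.92, with 0 past 2-fold. The flanking medians were 0.05 for BCL2, -0.35 for MCL1, 0.25 for BCL2A1, -0.34 for BAX and 0.30 for BID. Past 2-fold, BID had 3 flanking genes higher and 0 lower, and MCL1 had 0 higher and 1 lower. BCL2, BCL2A1 and BAX each had 1 higher and 1 lower. The flanking genes of BCL2 had the same range as those of PMAIP1 on the same chromosome (-1.39 to 1.80). These sets thus appear to share genes, and their counts are not separate observations. BCL2L11 (0.42) was close to the median of its flanking genes (0.39), of which 2 were past 2-fold higher and 0 lower. ACOXL, the gene next to it, was at 1.56 (1.43 to 1.69). For BCL2L1 the flanking median was 0.17, with 0 genes past 2-fold higher and 1 lower, ID1 next to it at -1.87 (-2.04 to -1.70). With 3 genes on each side, an alternative not planned beforehand, the medians for BCL2L1 and BID changed sign, to -0.15 and -0.06. Those of the other members kept their sign.

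Of the 14 other BCL2 family genes listed, 12 had at least 10 reads, and 0 of them were past 2-fold in either direction, against 7.42% and 4.19% of all genes. Their median log2 fold change was 0.11, beside 0.01 over all genes. BMF, a BH3-only gene tied to the cytoskeleton and the highest of the list by mean CPM of the libraries, had 109.6 and 100.3 CPM (log2 fold change 0.13, 0.07 to 0.19). The survival gene BCL2L2 (BCL-W) had 7.45 and 11.3 CPM, but it shares sequence with the read-through gene BCL2L2-PABPN1 (91.3 and 109.4 CPM), and how reads were split between them is uncertain. The survival gene BCL2L10 had 2 and 3 reads, and the effector BOK had 8 and 4.

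A list of 16 genes of the mitochondrial step held genes that act after pore formation and the outer membrane channels VDAC1, VDAC2 and VDAC3. Of the 16, 1 was past 2-fold higher in the DR-labelled library and 0 lower, near the 7.42% and 4.19% of all genes, with a median of -0.17. The higher gene was BIRC3 (cIAP2), an inhibitor of apoptosis known as an NF-κB target, with 115.4 and 52.4 CPM (log2 fold change 1.13, 1.06 to 1.21). Of the 13 genes for the turnover and binding of MCL1, BCL2L11 and BMF proteins, 0 were past 2-fold in either direction (7.42% and 4.19% of all genes), with a median of -0.24. HUWE1 (MULE), a ubiquitin ligase of MCL1 and the highest of them by CPM, had 692.9 and 817.4 CPM (log2 fold change -0.24, -0.26 to -0.22).

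Of 19 transcription factors known to act on these genes, 1 was past 2-fold higher in the DR-labelled library and 2 were lower, where 7.42% and 4.19% of all genes were, with a median of -0.01. TP73, a factor that can act on BBC3, had 9.13 and 2.90 CPM (log2 fold change 1.5, 1.23 to 1.78). FOXO1, a forkhead factor known to act on BCL2L11, had 17.1 and 43.9 CPM (-1.34, -1.45 to -1.22), and RUNX1 had 53.8 and 134.5 CPM (-1.31, -1.38 to -1.25). FOXO3, known to act on BCL2L11 and BBC3, had 588.5 and 325.9 CPM (0.85, 0.82 to 0.88). ATF4, a stress factor known to act on PMAIP1, had 328.0 and 568.5 CPM (-0.79, -0.82 to -0.76). MITF, listed here and among the melanocytic markers, had 34.5 and 34.8 CPM (-0.01, -0.11 to 0.09). The link between any of these factors and a member was not tested.

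**Figure D5:**
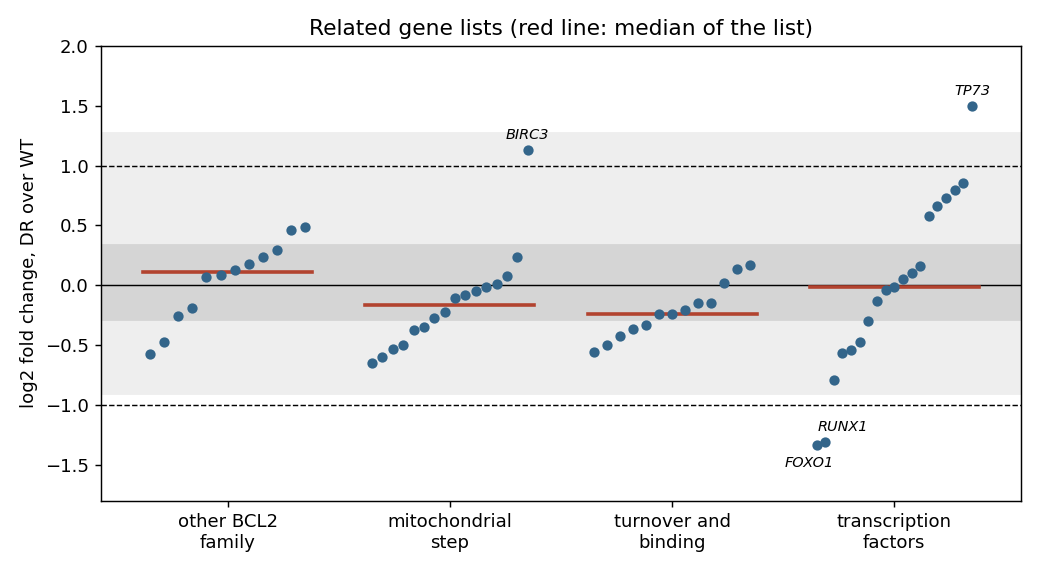
Log2 fold change (DR-labelled over WT-labelled library) of each compared gene in 4 related lists, with the list median in red and the middle 50% and 90% of all genes in grey. Genes past 2-fold are named: BIRC3 at 1.13, TP73 at 1.5, FOXO1 at -1.34 and RUNX1 at -1.31.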

How the data were processed

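Total RNA of 2 samples was sequenced on libraries made by Illumina protocols. The authors deposited estimated counts per gene, not scaled for library size, with a gene length whose unit is not stated (taken as bases). The submitters' processing notes name Bowtie 0.12.2 and hg19. The counting tool and annotation are not given in the sources used here. The table also holds the authors' log2 ratio, p-value, q-value and marks, which were not used. Estimated counts summed to 54878355 (DR) and 35294670 (WT) and were rounded (9108 of 18267 genes, and 4 of the 10 members, have fractional counts), while 663 genes had none.

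Library sizes were scaled by TMM in edgeR 4.0.16 under R 4.3.3 (factors 1.01 and 0.986). The quasi-likelihood test could not be fitted with 1 library per group. Log2 fold changes used a pseudocount of 0.5 CPM, and a gene needed at least 10 reads, summed over the libraries, to be compared. Called means past 2-fold. Intervals (95%) come from the exact binomial (Clopper-Pearson) bounds on how a gene's reads divide between libraries, exact conditional intervals for pairs (SciPy 1.17.1, Python 3.11.15), and delta-method intervals for summed TPM. Reads carry no molecular identifiers. Counts were also simulated at the depths of these libraries with counting error only, the changed genes drawn from genes with more reads than BCL2A1. Of 16185 genes, 200 of 200 changed by 2 on the log2 scale were past 2-fold, and 0 others were. This outcome follows from those settings. It checks the computation and gives no error rate for differences between single libraries.

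RefSeq (GRCh38.p14) served for names, gene order and upstream sequences. Its build differs from that of the files, so no other coordinates are given. Members and lists were chosen with earlier results of these data known. The text names all members, the genes past 2-fold of each list (or its most abundant gene) and the top 3 melanocytic and plasma cell markers. SOX10, TYRP1, VIM, CDH2, MS4A1, TRAT1, PDGFRB, FOXO3, ATF4 and MITF among the factors were named after their values were seen. So were BCL2L2, BCL2L2-PABPN1, BCL2L10, BOK, ACOXL, ID1 and the genes of the annotation terms in the closing section. Alternatives were DESeq2 1.42.0 size factors, library totals, other pseudocounts, filters and thresholds, levels without length, sums without the top gene, and fewer flanking genes.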

Additional observations from a re-analysis of the deposited data

How the results depend on the processing

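No paired analysis was possible because each group holds a single library, and for the same reason no replicate could be left out. The 2 members past 2-fold upward became 1 with a pseudocount of 5 CPM, with at least 50 reads, at a 4-fold threshold and, in an alternative added after seeing the data, without genes that have fractional counts. In each case BBC3 remained and BCL2A1 did not. The 0 members lower became 1, PMAIP1, at a 1.5-fold threshold. The log2 fold change of BBC3 ranged from 1.39 to 2.10 and that of BCL2A1 from 0.18 to 2.38 over the alternatives. With DESeq2's size factors both counts were the same and no member moved beyond its counting interval, and with library totals MCL1 alone did, from -0.01 to 0.03. The ratios of summed levels depend on length. Without it, the survival to BH3-only ratio was 2.96 (DR) and 3.28 (WT), a factor of 0.902, the survival to effector ratio 7.36 and 4.85, and the effector to BH3-only ratio 0.402 and 0.676, a factor of 0.595. Without the top gene of each role the survival to BH3-only ratio was 3.82 and 2.85, and its factor turned from 0.966 to 1.34. The survival to effector ratio was then 3.78 and 1.80, a factor of 2.10, and the effector to BH3-only ratio 1.01 and 1.58. Rounding changed none of the 24 pair ratios beyond its interval. Of 20 percentiles of level (10 members, 2 libraries), 20 moved without a filter and 19 when ranked by CPM.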

Other observations

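The annotation deposited with the table gives a further view of the processes these genes belong to, with terms chosen after the annotation had been seen. The term positive regulation of release of cytochrome c from mitochondria was held by 22 genes, 6 of them the effector and BH3-only genes above. Of the 16 others that were compared, 2 were past 2-fold higher in the DR-labelled library (7.42% of all genes) and 0 lower (4.19% of all genes), with a median log2 fold change of 0.18. The higher genes were PYCARD, an adaptor of inflammasomes (22.5 and 10.0 CPM, log2 fold change 1.13, 95% counting interval 0.96 to 1.29), and TNFSF10, the death ligand TRAIL (5.98 and 2.73 CPM, 1.0, 0.71 to 1.30). TNFSF10 lies at the 2-fold limit, inside its own interval.

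The term mitochondrial outer membrane was held by 129 genes, 9 of them members. Among the 113 others compared, 8 were past 2-fold higher in the DR-labelled library and 5 lower, with a median of -0.08. These counts are near the background of 7.42% and 4.19% of all genes. Some of these differences were far larger than that of BBC3. GJA1, the gap junction protein connexin 43, had 934 reads in the DR-labelled library and 4 in the WT-labelled library (log2 fold change 4.81, 4.44 to 5.03). HK1, a hexokinase that docks on the outer membrane, had 833 and 13 reads (4.15, 3.75 to 4.48). In the other direction PPP1R15A (GADD34), a stress-induced phosphatase subunit, had 1589 and 5374 reads (-2.42, -2.50 to -2.34). The term B cell homeostasis was held by 16 genes, among them BCL2, BAX, BAK1 and BCL2L11. Of its 12 other compared genes, 1 was past 2-fold higher, TNFRSF13B (TACI), with 98.7 and 33.1 CPM, and 2 were lower, LYN with 15.6 and 34.6 CPM and FOXP3 with 0.593 and 4.94 CPM, beside 7.42% higher and 4.19% lower over all genes.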
